A study of Mus musculus with 9 samples.

Results

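The genes described here encode the transcriptional end of the Hippo pathway: the coactivators YAP (Yap1) and TAZ (Wwtr1), the DNA-binding TEAD factors (Tead1, Tead2, Tead3 and Tead4), and the TEAD cofactors of the vestigial-like family Vgll3 and Vgll4. They were taken by symbol from the count files. All 8 were found among 34590 genes, and all 8 passed the filter on low counts that left 17182 genes for testing. RNA-seq counts came from mouse telencephalon, the embryonic forebrain, taken at mid-gestation (E12.5) on a strain background labelled mixed lineage. There were 4 libraries from Lats1/2;Nestin-Cre double knockouts (dKO), whose genotype is labelled Lats1/2 dko, and 5 from embryos labelled wild type (WT), and the labels name 4 dKO and 5 control embryos as their sources. Litters, the exons deleted and any floxed allele or Cre in the controls are not stated in the labels. The p-values therefore measure the spread between these libraries, in the edgeR tests of single genes together with a spread pooled over all tested genes. Nestin-Cre acts mainly in neural progenitors and their progeny, and other cells of the dissected tissue, such as vessel and meningeal cells, may keep both Lats genes.

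In mammals the Hippo kinases LATS1 and LATS2 phosphorylate YAP and TAZ, which are then held in the cytoplasm or degraded. Unphosphorylated YAP and TAZ enter the nucleus, where they have no DNA-binding domain of their own and reach their target genes through TEAD factors. VGLL proteins bind TEADs through a short motif: VGLL4 competes with YAP and is known as a repressor of YAP-TEAD activity, while VGLL3 can bind TEADs in place of YAP and TAZ. Since phosphorylation, location and binding are properties of proteins, transcript counts do not report on them.

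Each gene was compared on 2 scales. ERCC spike-ins, synthetic RNAs added in proportion to the number of counted cells, give a scale per input cell, on which a count is divided by the spike-in count of its library. The relative scale (TMM-normalised CPM, counts scaled to a common library size) sets a gene against the other genes of its library. Libraries held between 16566763 and 45803152 gene counts in dKO and between 12906561 and 39263370 in WT. Gene counts per spike-in count averaged 79.1 ± 5.9 in dKO (SD, n = 4) and 58.1 ± 6.1 in WT (SD, n = 5), 1.36-fold higher in dKO (two-sided exact permutation test, p = 0.00794, the smallest that 9 libraries in groups of 4 and 5 allow). The median log2 fold change over all tested genes was 0.43 per spike-in count and -0.01 on the relative scale. Lats1 had 59.8 ± 1.07 CPM in dKO and 132 ± 4.55 CPM in WT (relative log2 fold change -1.15, edgeR quasi-likelihood adjusted p = 3.12e-08). Lats2 had 43.4 ± 9.46 CPM in dKO and 27 ± 6.18 CPM in WT (log2 0.69, adjusted p = 0.0144), a call that ended without WT replicates 2, 3 and 4 (log2 0.42, adjusted p = 0.209); because the deleted exons are not given, the whole-gene count of Lats2 does not check its label. Reads in no gene made up 39.3% to 41.3% of reads in WT replicates 2, 3 and 4, against 32% to 35.6% in the dKO libraries and 32.5% to 34.4% in WT replicates 1 and 5. The 3 WT libraries stood apart in this way, so counts of calls are also given without them, and a call of a named gene that ends without them is said to do so.

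Per spike-in count, all 8 genes were higher in dKO, against 61.1% of all tested genes (edgeR quasi-likelihood test, p below 0.05 after Benjamini-Hochberg adjustment over all tested genes). Their median log2 fold change was 1.01, beside 0.43 over all tested genes. On the relative scale 6 of the 8 were higher, against 13.7% of tested genes: Yap1, Wwtr1, Tead1, Tead3, Tead4 and Vgll3. Tead2 and Vgll4 did not pass the test there, at log2 fold changes of 0.10 and 0.11, and no gene of the 8 had a negative fold change on either scale. The median relative log2 fold change of the 8 was 0.57, beside -0.01 over all tested genes. The CPM of the 4 dKO libraries all lay above the 5 WT libraries for Wwtr1, Tead1, Tead3, Tead4 and Vgll3, 5 of 8 genes, against 12.6% of tested genes; per spike-in count this held for all 8, against 48.4%. Without WT replicates 2, 3 and 4, the counts called higher were 8 per spike-in count, against 49.1% of genes, and 4 on the relative scale (Wwtr1, Tead1, Tead3 and Tead4), against 2.51%. In bulk tissue a shift in the numbers of cells of a type cannot be told apart from a shift in RNA per cell.

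**Figure D1:**
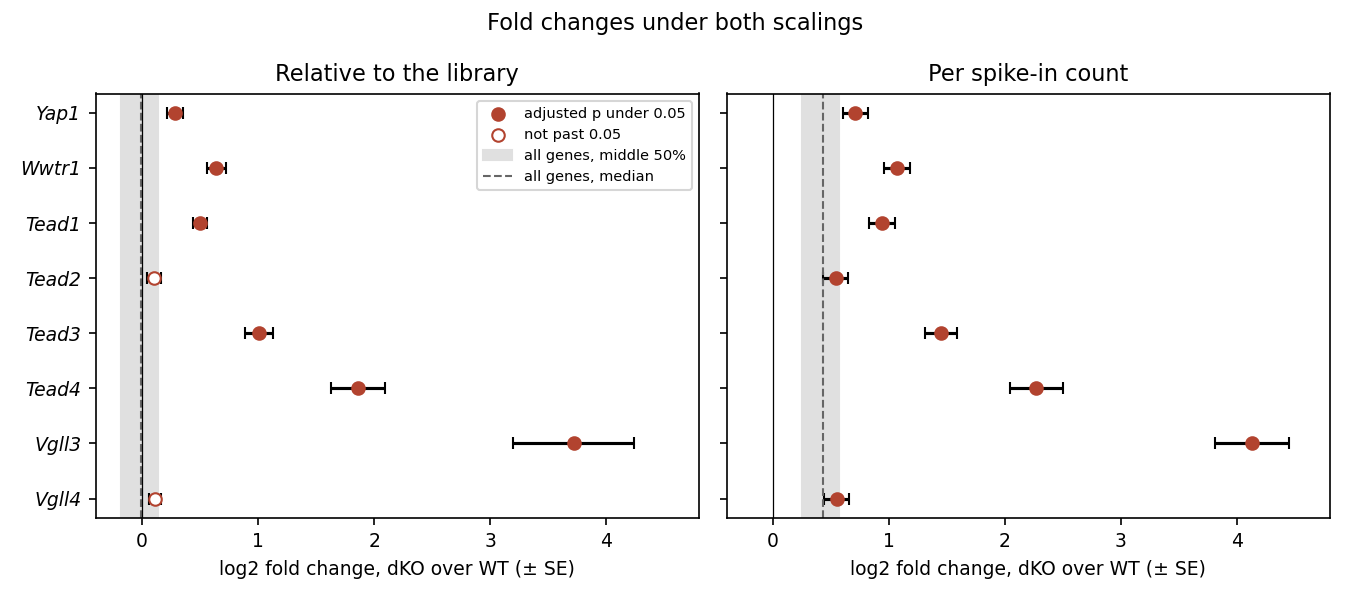
Log2 fold change, dKO over WT, of each gene on the relative scale (left) and per spike-in count (right), with bars of ± 1 SE from edgeR's quasi-likelihood fit over 4 dKO and 5 WT libraries; filled points passed an adjusted p of 0.05, the grey band spans the middle 50% of tested genes and the dashed line is their median. Vgll3 lies farthest to the right at 3.72 relative and 4.13 per spike-in count, and Tead2 and Vgll4 lie inside the grey band in both panels.

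The coactivators differed in how far they stood from the typical gene. Wwtr1, which encodes TAZ, had 109, 85.9, 87.8 and 115 CPM in dKO replicates 1 to 4, against 64.7, 64, 63.5, 63.2 and 63.3 CPM in WT replicates 1 to 5. The WT libraries were nearly equal, while the dKO libraries spread over a wider range, all of it above WT. The relative fold change was 1.56 (log2 0.64, SE 0.08, adjusted p = 0.000363), and per spike-in count it was 2.1 (log2 1.07, SE 0.11, adjusted p = 1.53e-09). Without WT replicates 2, 3 and 4 the relative log2 fold change was 0.63 (adjusted p = 0.0302).

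Yap1 had 150, 159, 136 and 142 CPM in dKO replicates 1 to 4, against 141, 112, 110, 113 and 130 CPM in WT replicates 1 to 5. The groups overlapped, because WT replicate 1 lay above dKO replicate 3, and the lowest WT libraries were replicates 2, 3 and 4. The relative fold change was 1.21 (log2 0.28, SE 0.07, adjusted p = 0.0189). This call depended on single libraries: the adjusted p was 0.0503 without WT replicate 2, 0.0518 without WT replicate 4, 0.0513 without dKO replicate 1 and 0.0566 without dKO replicate 2, and without WT replicates 2, 3 and 4 the log2 fold change was 0.12 (adjusted p = 0.407). Per spike-in count Yap1 had 1050, 1340, 1070 and 1170 counts per 100000 spike-in counts in the dKO libraries, against 762, 556, 703, 692 and 809 in the WT libraries. On that scale the groups were apart and the fold change was 1.64 (log2 0.71, SE 0.11, adjusted p = 3.55e-06).

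The ratio of Wwtr1 to Yap1 counts within a library needs neither scaling. It was 0.682 ± 0.116 in dKO (SD, n = 4) and 0.531 ± 0.0531 in WT (SD, n = 5), and 3 of 4 dKO libraries lay above every WT library. The log2 difference of 0.35 (SE 0.14) did not pass the test (two-sided exact permutation p = 0.0556, 0.0635 after Benjamini-Hochberg adjustment over 6 ratios). Without dKO replicate 2, which had the lowest ratio of the dKO group, the difference was 0.46 (exact p = 0.0179), and without any other single library it was 0.26 to 0.38 (exact p = 0.0857 to 0.125). Per kilobase of transcript, Yap1 and Wwtr1 together had 56.3 ± 3.57 CPM per kb in dKO and 42.6 ± 3.28 CPM per kb in WT. TAZ transcripts made up 37.5% ± 4.03 of this sum in dKO and 32% ± 2.21 in WT.

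**Figure D2:**
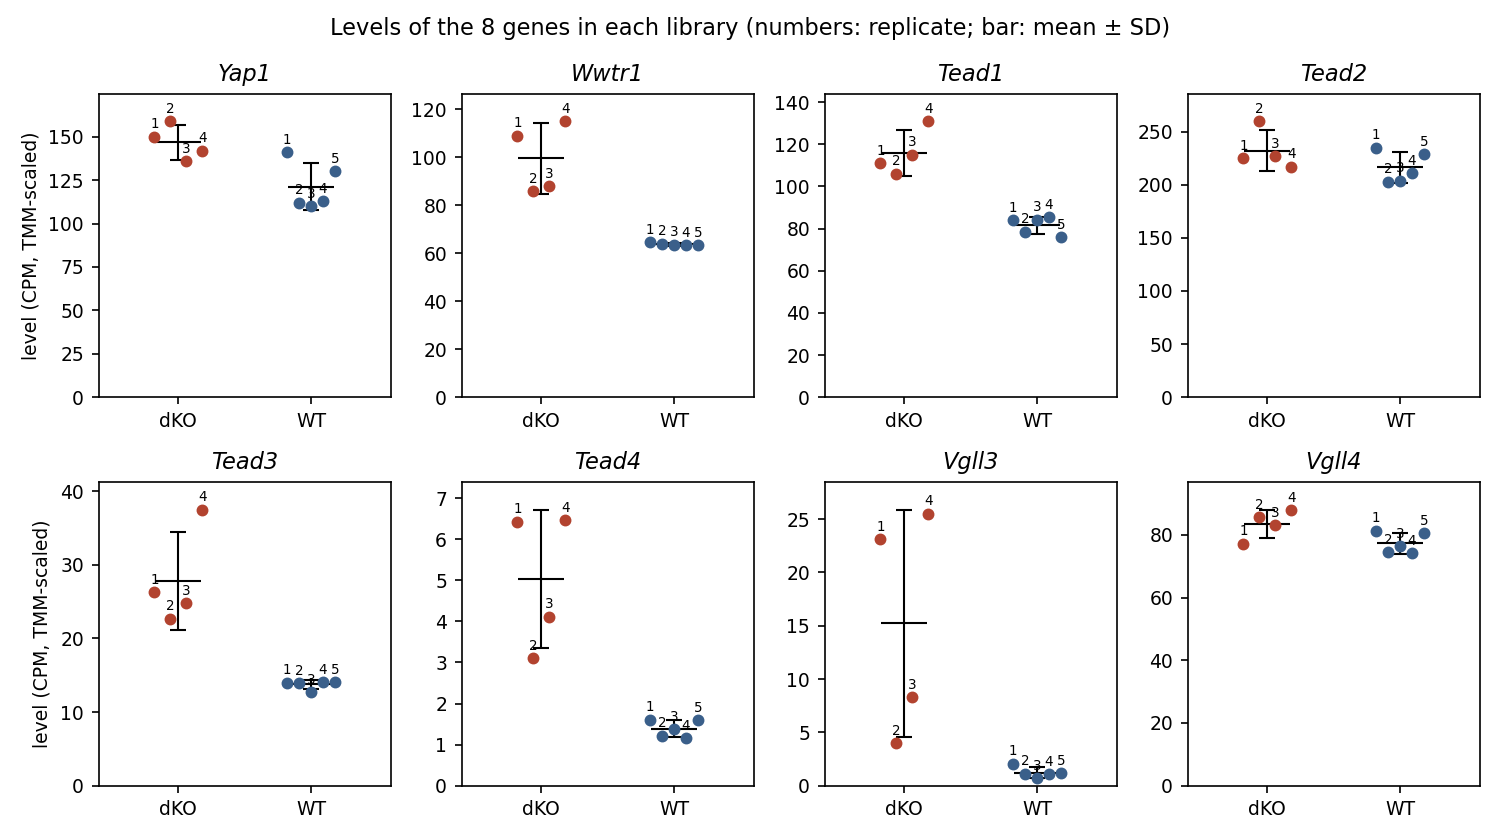
CPM of each gene in every library, dKO left of WT in each panel, with 4 dKO and 5 WT points and bars at the group mean ± SD; each panel has its own vertical axis from 0. The dKO points of Wwtr1, Tead1, Tead3, Tead4 and Vgll3 all lie above the WT points, while those of Yap1, Tead2 and Vgll4 overlap them.

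The TEAD genes fell into a graded series, with larger relative fold changes for the members at lower levels. Tead2 had the highest level of the 8 genes, 225, 260, 227 and 217 CPM in dKO replicates 1 to 4, against 235, 203, 204, 211 and 229 CPM in WT replicates 1 to 5. The groups overlapped over most of their range. The relative log2 fold change was 0.10 (SE 0.06, adjusted p = 0.255), and it was 0 without WT replicates 2, 3 and 4. Per spike-in count Tead2 was 1.46-fold higher (log2 0.54, SE 0.11, adjusted p = 0.000148), beside 1.34-fold for the median gene. Tead2 ranked 5247 of 17182 genes from the highest relative fold change.

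Tead1 had 111, 106, 115 and 131 CPM in dKO, against 84, 78.5, 84.2, 85.3 and 75.9 CPM in WT. All dKO libraries were above all WT libraries, and dKO replicate 4 was the highest. The relative fold change was 1.42 (log2 0.50, SE 0.06, adjusted p = 0.000295), and 1.92 per spike-in count (log2 0.94, SE 0.11, adjusted p = 2.93e-08).

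Tead3 had 26.3, 22.7, 24.8 and 37.5 CPM in dKO, against 14, 13.9, 12.7, 14.1 and 14.1 CPM in WT. The groups were far apart, with dKO replicate 4 well above the other dKO libraries. The relative fold change was 2.01 (log2 1.01, SE 0.12, adjusted p = 0.000334), and 2.73 per spike-in count (log2 1.45, SE 0.14, adjusted p = 4.03e-10).

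Tead4 was the TEAD with the lowest level, 6.43, 3.11, 4.11 and 6.47 CPM in dKO, against 1.61, 1.22, 1.38, 1.15 and 1.59 CPM in WT. These rested on 290, 86, 144 and 106 reads in dKO and 21, 43, 42, 36 and 62 reads in WT. Even the lowest dKO library, replicate 2, was above every WT library. The relative fold change was 3.63 (log2 1.86, SE 0.23, adjusted p = 0.000342), and 4.83 per spike-in count (log2 2.27, SE 0.23, adjusted p = 8.31e-10). The ratio of pooled CPM was 3.68, with a 95% exact interval of 3.14 to 4.33 that covers counting error only. Without WT replicates 2, 3 and 4 the relative log2 fold changes were 0.53 for Tead1, 0.97 for Tead3 and 1.65 for Tead4, and all 3 calls held (adjusted p = 0.0182, 0.031 and 0.0395, in that order).

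Within libraries, Tead1, Tead3 and Tead4 each took up a larger ratio to Tead2. The Tead4 to Tead2 count ratio was 0.0221 ± 0.00857 in dKO and 0.0064 ± 0.000632 in WT (log2 difference 1.70, SE 0.32). The Tead3 to Tead2 ratio was 0.122 ± 0.0363 in dKO and 0.0637 ± 0.00372 in WT (log2 difference 0.89, SE 0.21). For both ratios all 4 dKO libraries lay above all WT libraries (two-sided exact permutation p = 0.00794, adjusted 0.0159 over 6 ratios). The Tead1 to Tead2 ratio was 0.503 ± 0.0792 in dKO and 0.378 ± 0.0339 in WT (log2 difference 0.40, SE 0.13, exact p = 0.0159, adjusted 0.0238), with 3 of 4 dKO libraries above every WT library. Without any 1 of WT replicates 1, 2, 4 and 5 the Tead1 ratio no longer passed (exact p = 0.0571).

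Per kilobase of the longest annotated coding transcript, Tead2 still made up most of the TEAD transcripts, 74.6% ± 4.29 in dKO and 82.4% ± 0.943 in WT. Tead1 made up 12.7% ± 1.28 in dKO and 10.6% ± 0.838 in WT, but 22.2% in dKO and 18.6% in WT with the shortest RefSeq-linked transcript of each TEAD, and 30.4% in dKO and 26.1% in WT without division by length. Tead3 made up 11% ± 2.58 in dKO and 6.42% ± 0.328 in WT. Tead4 made up 1.79% ± 0.626 in dKO and 0.582% ± 0.0623 in WT. The 4 TEADs together summed to 91.6 ± 3.66 CPM per kb in dKO and 77.4 ± 4.49 CPM per kb in WT. The number of coactivator transcripts per TEAD transcript was 0.615 ± 0.0409 in dKO and 0.551 ± 0.0132 in WT, and 0.336 ± 0.0229 in dKO and 0.301 ± 0.00837 in WT with the shortest transcripts. Without division by length it was 0.646 ± 0.0431 in dKO (range 0.603 to 0.702) and 0.59 ± 0.0186 in WT (range 0.567 to 0.613), where the groups overlapped. These sums and shares are given as descriptions without a test.

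**Figure D3:**
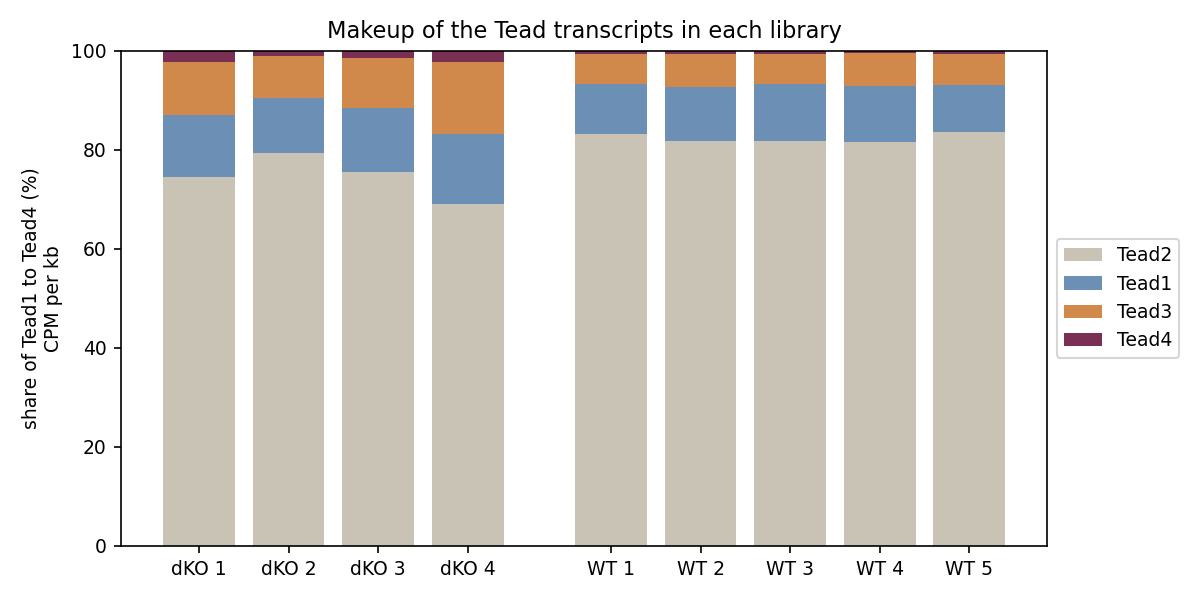
Share of each TEAD gene in the summed TEAD transcripts (percent, from CPM per kb of the longest coding transcript), per library, with the 4 dKO libraries left of the 5 WT libraries. Tead2 fills most of every bar, on average 74.6% in dKO and 82.4% in WT.

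The VGLL genes differed most from each other. Vgll3 had 23.1, 4.01, 8.3 and 25.5 CPM in dKO replicates 1 to 4, against 2.06, 1.14, 0.688, 1.06 and 1.15 CPM in WT replicates 1 to 5, from 1040, 111, 291 and 417 reads in dKO and 27, 40, 21, 33 and 45 reads in WT. The dKO libraries differed widely, with replicates 1 and 4 high and replicate 2 lowest, and all were above WT. The relative fold change was 13.2 (log2 3.72, SE 0.52, adjusted p = 0.000648), rank 8 of 17182 genes, and per spike-in count it was 17.5 (log2 4.13, SE 0.32, adjusted p = 2.39e-12). Without WT replicates 2, 3 and 4 the relative log2 fold change was 3.36 and no longer passed (adjusted p = 0.0634). The pooled CPM ratio was 13.4 (95% exact interval 11.5 to 15.8, counting error only).

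Vgll4 had 77.2, 85.7, 83.2 and 87.8 CPM in dKO, against 81.3, 74.4, 76.5, 74.1 and 80.5 CPM in WT. The groups overlapped, with dKO replicate 1 inside the WT range. The relative log2 fold change was 0.11 (SE 0.05, adjusted p = 0.108), and it passed without dKO replicate 1 (log2 0.15, adjusted p = 0.041). Per spike-in count Vgll4 was 1.46-fold higher (log2 0.55, SE 0.11, adjusted p = 0.000126). The ratio of Vgll3 to Vgll4 counts was 0.184 ± 0.129 in dKO and 0.0157 ± 0.00598 in WT (log2 difference 3.26, SE 0.69, two-sided exact permutation p = 0.00794, adjusted 0.0159). The ratio of Vgll4 to Yap1 counts was 0.572 ± 0.0516 in dKO and 0.642 ± 0.0443 in WT, a log2 difference of -0.17 (SE 0.08) that did not pass (exact p = 0.0635, adjusted 0.0635). Without WT replicate 1 it was -0.21 (exact p = 0.0286), without dKO replicate 1 it was -0.12 (exact p = 0.179), and without WT replicates 2, 3 and 4 it was -0.07 (exact p = 0.467).

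Of the 2 other family members, Vgll1 was at or near the floor of the counts in every library, and Vgll2 in most WT libraries. Vgll1 had no read in any dKO library and 1 read in WT replicate 3, and 0 counts allows up to 3 counts per library. Vgll2 had 55, 13, 27 and 22 reads in dKO, against 1, 2, 2, 1 and 15 reads in WT. In CPM the dKO libraries, at 0.47 to 1.34, all lay above the WT libraries, at 0.032 to 0.384. WT replicate 5 held most of the WT reads, and the pooled CPM ratio was 6.69 (95% exact interval 4.18 to 11.2, counting error only). Its relative log2 fold change was 2.74 (edgeR adjusted p = 0.00484), and 1.69 without WT replicates 2, 3 and 4 (adjusted p = 0.152).

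**Figure D4:**
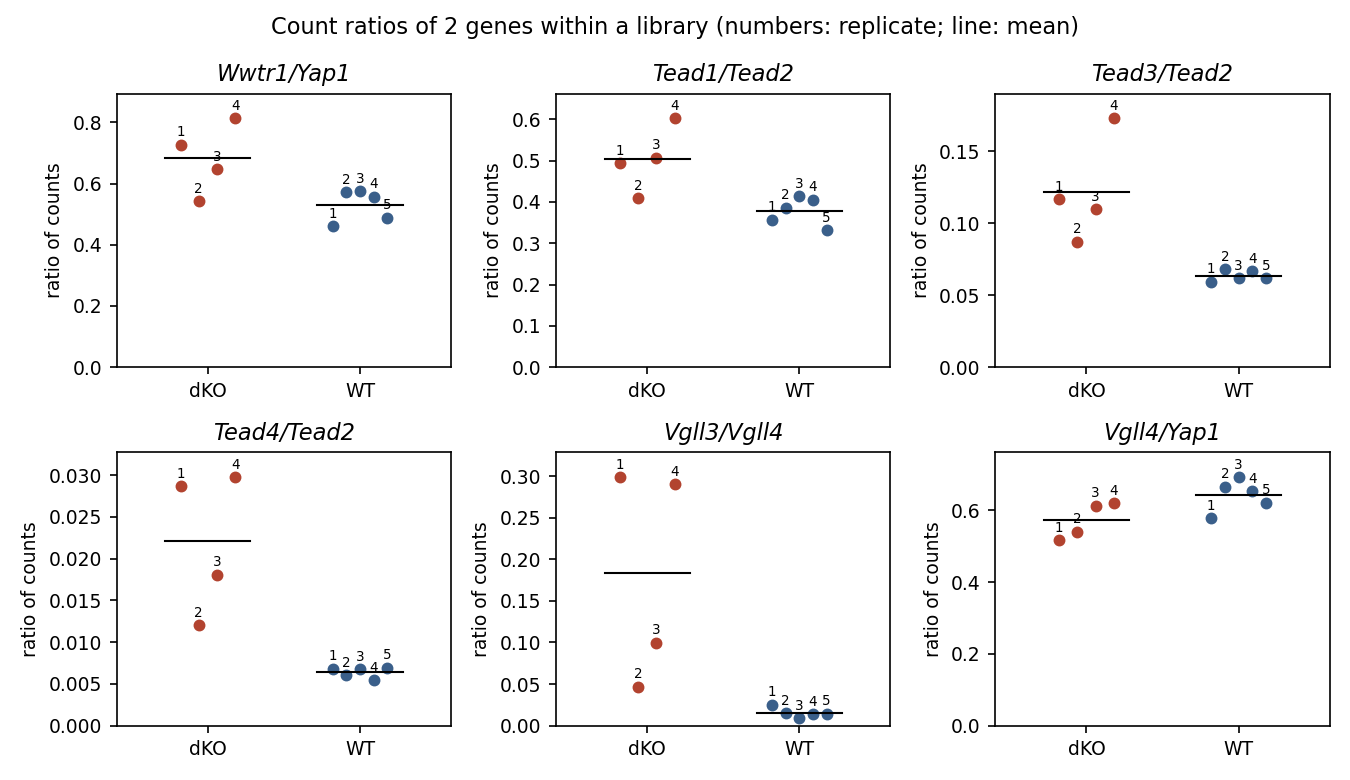
Count ratios of gene pairs within each library, dKO left of WT, on linear axes that start at 0, with replicate numbers beside the points and a line at each group mean. All 4 dKO points lie above the 5 WT points for Tead3 to Tead2, Tead4 to Tead2 and Vgll3 to Vgll4.

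In CPM, the dKO libraries kept much the same order across the genes that rose most. Relative to the WT mean CPM, Vgll3 was 18.9, 3.29, 6.81 and 20.9-fold higher in dKO replicates 1 to 4. Tead4 was 4.63, 2.24, 2.96 and 4.66-fold higher in the same order. Tead3 was 1.91, 1.65, 1.81 and 2.73-fold, Wwtr1 1.71, 1.35, 1.38 and 1.81-fold. On this scale replicate 4 was highest and replicate 2 lowest for each of Wwtr1, Tead1, Tead3, Tead4 and Vgll3. Per spike-in count replicate 4 was again highest for each, and replicate 2 was lowest for Tead4 and Vgll3 only. There the lowest was replicate 3 for Wwtr1 (690 counts per 100000 spike-in counts) and replicate 1 for Tead1 and Tead3 (775 and 184). For Yap1 and Tead2 the highest dKO library was replicate 2, at 1.31-fold in CPM for Yap1. Vgll4 was highest in replicate 4 and lowest in replicate 1 in CPM. How many of all tested genes had replicate 4 highest and replicate 2 lowest was not counted. Ctgf, a direct YAP/TAZ-TEAD target that encodes a secreted matrix protein, was 9.72, 5.63, 8.06 and 16.5-fold higher in CPM, also lowest in replicate 2 and highest in replicate 4. The summed CPM of the YAP/TAZ target genes listed below, Ctgf among them, was 1.91, 1.6, 1.74 and 2.4-fold higher. The pattern was thus not limited to the 8 genes. Of the targeted genes, Lats1 was at 0.444, 0.463, 0.45 and 0.449 of the WT mean, close to equal in the 4 libraries, while Lats2 was 1.65, 1.35, 1.35 and 2.09-fold higher.

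Per kilobase, the order of levels in dKO was Tead2 (68.3 ± 5.54 CPM per kb), Vgll4 (41.2 ± 2.27), Yap1 (35.1 ± 2.37), Wwtr1 (21.2 ± 3.16), Tead1 (11.6 ± 1.08), Tead3 (10 ± 2.39), Vgll3 (2.17 ± 1.52) and Tead4 (1.64 ± 0.55). The ranges of Tead1 and Tead3 overlapped, as did those of Vgll3 and Tead4. In WT the order was Tead2 (63.8 ± 4.37 CPM per kb), Vgll4 (38.1 ± 1.65), Yap1 (29.1 ± 3.21), Wwtr1 (13.6 ± 0.13), Tead1 (8.19 ± 0.414), Tead3 (4.96 ± 0.22), Tead4 (0.452 ± 0.0671) and Vgll3 (0.174 ± 0.0725), with no overlap between neighbours. Tead4 and Vgll3 changed places between the groups, but not when the shortest RefSeq-linked coding transcript of each gene was used, which put Tead4 at place 7 and Vgll3 at place 8 in dKO as well. Which transcripts these tissues use is not known from gene counts, and the length of Tead1 ranged from 3047 to 9964 bases between annotated coding transcripts, so its place in the order depends on the length used.

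The promoters are shown because several of these genes moved together and TEADs recognise a short DNA core, GGAATG, whose reverse complement is CATTCC. RefSeq windows of the 250 bases before annotated starts (GRCm38.p6) were at hand for 6 of the 8 genes, all but Tead1 and Tead4. The counts were made on mm9, another build, so the windows serve for sequence only. The core was searched on both strands, a search chosen after the sequences had been seen. It was found for 5 of 6 genes, the exception being Tead2, against 14.4% of 27025 genes, and in 7 of 9 windows of these 6 genes, against 12.6% of 32851 windows. The windows of Wwtr1 overlap and hold the same site, 136 and 170 bases before their starts, so this site counts in both. Of the genes in both tables it was present for 13% of those tested, 14.5% of those higher on the relative scale, 14.2% of those lower and 19.5% of those at least 2-fold higher. A match is a description of the sequence and not evidence of binding. Windows follow for Wwtr1 (chr3:57575911-57576160, minus strand), Tead3 (chr17:28350806-28351055, minus strand) and Vgll3 (chr16:65814939-65815188, plus strand), which were higher in dKO on the relative scale, and for Tead2 (chr7:45215542-45215791, plus strand), which was not. Vgll4, whose window is not printed, had the core and was not called higher there either (log2 fold change 0.11, edgeR adjusted p = 0.108). Each is written 5′ to 3′ and ends at the base before the start, with the core in capitals.
Wwtr1: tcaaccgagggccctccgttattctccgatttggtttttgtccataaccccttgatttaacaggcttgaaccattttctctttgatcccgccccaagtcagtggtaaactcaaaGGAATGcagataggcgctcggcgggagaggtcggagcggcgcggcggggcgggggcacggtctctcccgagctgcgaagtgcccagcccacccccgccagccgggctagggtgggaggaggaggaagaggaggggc
Tead3: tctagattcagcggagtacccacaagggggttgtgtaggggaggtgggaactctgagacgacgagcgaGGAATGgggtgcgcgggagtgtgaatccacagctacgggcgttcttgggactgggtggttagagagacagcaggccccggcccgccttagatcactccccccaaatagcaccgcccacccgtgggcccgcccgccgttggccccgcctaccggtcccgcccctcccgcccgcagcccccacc
Vgll3: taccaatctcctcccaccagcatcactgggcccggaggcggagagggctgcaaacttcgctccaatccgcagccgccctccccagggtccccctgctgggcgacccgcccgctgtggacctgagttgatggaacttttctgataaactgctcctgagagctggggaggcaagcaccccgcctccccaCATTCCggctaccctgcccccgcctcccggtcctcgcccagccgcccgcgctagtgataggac
Tead2: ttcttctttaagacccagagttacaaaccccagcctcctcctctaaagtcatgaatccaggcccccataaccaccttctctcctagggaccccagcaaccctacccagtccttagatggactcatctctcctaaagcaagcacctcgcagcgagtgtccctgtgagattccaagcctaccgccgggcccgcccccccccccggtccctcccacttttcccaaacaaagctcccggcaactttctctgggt
The core began 136 bases before the start in Wwtr1, 182 in Tead3 and 63 in Vgll3, and in Yap1 and Vgll4 it began at 141 and 82. For Vgll3 and Vgll4 the bases just after the start were not found in a GENCODE M21 transcript of the gene, so these distances are less certain. For all other windows they were found. Another annotated start of Tead3 had 2 copies of the core, 123 and 114 bases before it (chr17:28350702-28350731, minus strand), shown here with flanking bases, and a further start of Tead3 had none.
Tead3, other start: gccgggctCATTCCgtaCATTCCggccatc

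**Figure D5:**
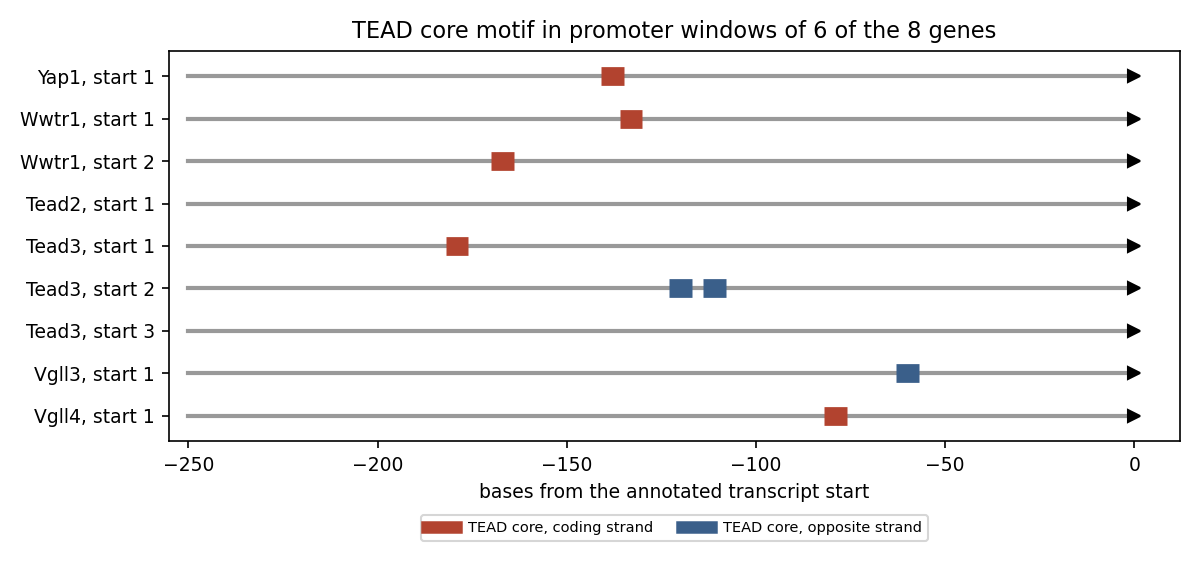
Positions of the TEAD core in the 250 bases before each annotated start (horizontal axis, distance to the start in bases), 1 line per start, with separate markers for matches on the coding and on the opposite strand. Tead2 has none, and the other 5 genes have a match between 63 and 182 bases before a start.

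Among the upstream Hippo kinases and adaptors, 5 of 22 tested genes were higher and 4 lower on the relative scale (median log2 0.02), and 17 were higher and 1, Lats1, lower per spike-in count (median 0.45). Over all tested genes 13.7% were higher and 12% lower on the relative scale, and 61.1% were higher and 0.698% lower per spike-in count. Wwc2 and Wwc1, which encode KIBRA-family scaffolds that activate LATS, had relative log2 fold changes of 1.67 and 1.13 (adjusted p = 1.45e-05 and 0.000782). Map4k4, an upstream kinase, and Taok3, a kinase that can activate MST kinases, had -0.20 and -0.25 (adjusted p = 0.00364 and 0.0157). Of the 27 tested proteins that bind YAP or TAZ or act in their turnover, 8 were higher and 5 lower (median 0.06), and 22 were higher per spike-in count (median 0.50). Ptpn14, a phosphatase that binds and retains YAP in the cytoplasm, had a log2 fold change of 2.26 on the relative scale (SE 0.14, adjusted p = 7.46e-06). Ajuba, listed as Jub, a LIM protein that inhibits LATS, had 2.19 (SE 0.09, adjusted p = 3.62e-07). Amotl2, an angiomotin that binds YAP, had 1.27 (SE 0.13, adjusted p = 9.92e-05). Btrc, which encodes a receptor of the ligase that degrades YAP and TAZ, had -0.23 (adjusted p = 0.00839).

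Of 26 tested nuclear partners and other TEAD cofactors, 6 were higher and 5 lower on the relative scale (median 0), and 20 were higher per spike-in count (median 0.44). These counts, and those of the target genes below, stand beside 13.7% and 61.1% of all tested genes higher on the relative scale and per spike-in count. Fosl2, an AP-1 subunit, had a log2 fold change of 2.15 on the relative scale (SE 0.22, adjusted p = 0.00013), Runx2 1.31 (SE 0.36, adjusted p = 0.0195) and Jun 0.53 (SE 0.09, adjusted p = 0.00193). Ep300, an acetyltransferase that acts as a general coactivator, had -0.22 (adjusted p = 0.00459). In a signature of YAP/TAZ target genes, 14 of 22 tested genes were higher and 0 lower (median 0.65), and 21 were higher per spike-in count (median 1.08). Amotl2, Lats2 and Ptpn14 stand both in this list and in the lists before it. At an unadjusted p under 0.05, 1 target was lower, and DESeq2 and limma-voom called 0 lower. Ctgf, Ankrd1 and F3 had relative log2 fold changes of 3.32, 2.80 and 2.71 (adjusted p = 3.66e-05, 0.00706 and 3.66e-05), so Vgll3 had a larger estimate than any of these 3. Without WT replicates 2, 3 and 4, the counts higher and lower on the relative scale were 2 and 1 for the kinases and adaptors, 5 and 1 for the binding proteins, 1 and 0 for the partners and 8 and 0 for the targets, against 2.51% higher and 0.949% lower over all tested genes. Among the genes named from these lists, the relative calls that ended there were those of Lats2, given above, Taok3 (log2 -0.15, adjusted p = 0.321), Map4k4 (-0.19, 0.117), Btrc (-0.28, 0.0954), Runx2 (0.86, 0.356), Jun (0.36, 0.0829), Ep300 (-0.20, 0.136) and Ankrd1 (2.20, 0.163).

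Markers of cell types were read beside these results, against 13.7% of all tested genes higher and 12% lower on the relative scale and 61.1% higher and 0.698% lower per spike-in count. Of 11 radial glia markers, which mark the progenitors in which Nestin-Cre acts, 3 were higher and 2 lower on the relative scale (median log2 0.06), and 8 were higher and 1 lower per spike-in count (median 0.50). Their sum was between 3970 and 4380 CPM in dKO and between 2610 and 3000 CPM in WT. The difference in the sum came largely from Vim, with 1690 ± 259 CPM in dKO and 709 ± 87.9 CPM in WT, and Nes, with 1180 ± 73.6 CPM in dKO and 784 ± 58.5 CPM in WT, both intermediate filament genes. Hes5 and Fabp7 were the lower ones, at relative log2 fold changes of -1.03 and -0.23 (adjusted p = 0.00964 and 0.00466), calls that ended without WT replicates 2, 3 and 4 (adjusted p = 0.0658 and 0.0679). Sox2 and Pax6 had 0.07 and -0.05 (adjusted p = 0.539 and 0.484).

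Neuronal markers summed to between 2360 and 2580 CPM in dKO and between 2830 and 3490 CPM in WT, with 9 of 11 lower and 0 higher on the relative scale (median log2 -0.48). When WT replicates 2, 3 and 4 were left out, 2 of 11 were lower (median -0.33). Per spike-in count 1 neuronal marker was higher and 1 lower (median -0.05). Markers of intermediate progenitors were lower for 5 of 8 and higher for 0 on the relative scale (median -0.29), 1 of 8 was lower without WT replicates 2, 3 and 4, and 1 was higher per spike-in count (median 0.14). For both lists DESeq2, limma-voom and an unadjusted p under 0.05 also gave 0 higher on the relative scale with all libraries. Endothelial markers summed to between 267 and 350 CPM in dKO and between 274 and 353 CPM in WT, with 1 of 12, Flt1, higher and 0 lower. Markers of pericytes and meningeal mesenchyme, cells that may also carry YAP/TAZ-TEAD transcripts, summed to between 900 and 1270 CPM in dKO and between 994 and 1220 CPM in WT, with none of 14 called by edgeR, DESeq2 or limma-voom and 1 lower at an unadjusted p under 0.05. Per spike-in count 7 endothelial and 8 mesenchymal markers were higher. Microglia and macrophage markers summed to between 96.2 and 137 CPM in dKO and between 78.2 and 96.7 CPM in WT. Of these 10 markers 1, Mrc1, was higher and 0 were lower on the relative scale, and 7 were higher per spike-in count. On the relative scale DESeq2 called 3 of them higher and limma-voom 1, and 4 were higher at an unadjusted p under 0.05. Of 8 erythroid markers 2 were lower and 0 higher on the relative scale. Of 8 markers of surface ectoderm, neural crest and melanocytes 1, Krt19, was higher and 1, Dct, lower. The counts of 0 in the endothelial, microglia and erythroid lists were also 0 by DESeq2, limma-voom and an unadjusted p under 0.05. The calls of Flt1, Mrc1 and Dct ended without WT replicates 2, 3 and 4 (adjusted p = 0.579, 0.242 and 0.0985), where Krt19 stayed higher (adjusted p = 0.0234) and 3 erythroid markers were lower. None of 10 choroid plexus and cortical hem markers was called by any of these tools or had an unadjusted p under 0.05. The part of the neuronal and progenitor marker values in the fold changes of the TEAD and YAP/TAZ genes was not tested.

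The genes nearest in pattern to each member were found among 12594 genes by the root mean square difference of log2 CPM over the 9 libraries, each gene taken from its own WT mean; predicted genes were left out. For Vgll3 these were Col8a1, a collagen gene, at 0.34, Ctgf at 0.50 and Lrp2, an endocytic receptor gene, at 0.53. For Tead4 they were Dusp3 at 0.15, Gpr126 at 0.17 and Csrp1 at 0.19, and for Tead3 Tln1 at 0.09, Tmem56 at 0.09 and Stard5 at 0.10. For Yap1 they were Cdca7l at 0.03, Ccna2, which encodes cyclin A2, at 0.04 and Mad2l1, a spindle checkpoint gene, at 0.04. For Wwtr1 they were Nek6 at 0.04, Ctps at 0.05 and Adk at 0.05, and for Tead1 Mars, Bre and Iqgap3, all at 0.06. For Tead2 they were Lzts2, Dpp3 and Kif22, and for Vgll4 Stub1, Rnh1 and the pseudogene Rps25-ps1, each at 0.03. Each distance spans the change between groups as well as the spread within them.

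Several of the genes share their locus with other transcripts. In GENCODE M21, Tead2 overlaps Cd37, a protein-coding gene on the opposite strand, Yap1 overlaps Gm20416 on the opposite strand, and Tead1 overlaps 2310014F06Rik on the opposite strand and the miRNA gene Gm44462. Wwtr1 overlaps Gm16016 and Tead4 overlaps Gm21893. Overlap was taken over whole genes, introns included, so it need not reach the counted exons. The library kit kept the strand, but the strand setting of the counting is not given in the labels. How reads in any shared stretch were assigned is therefore not known. Tead3, Vgll3 and Vgll4 overlapped no other annotated gene.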

How the data were processed

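RNA-seq was read from 9 libraries, 4 dKO and 5 WT, grouped by their genotype labels. The deposited files hold whole-number counts per gene symbol that the authors made without normalization. STAR, HTSeq and mm9 are named per the submitters' processing notes. Versions, annotation and the strand setting of counting: not given in the sources used here. Per the labels' protocols, equal numbers of cells were pelleted and an ERCC mix was added before extraction. Rows for reads not assigned to a gene, of which the reads in no gene are only a part, held 56.3% to 64.2% of reads. They entered neither library sizes nor tests.

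Genes were kept by filterByExpr (17182 of 34590, holding 99.9% of gene counts) and tested with edgeR 4.0.16 in R 4.3.3 (quasi-likelihood test, called at p under 0.05 after Benjamini-Hochberg adjustment over all tested genes). The library size was the sum of 92 spike-ins in 1 fit and the TMM-scaled gene total in the other; CPM values are TMM-scaled. SE is the log2 fold change divided by the root of F. The edgeR fit drew the variance of each gene towards that of all tested genes. This pooled part had 28.5 degrees of freedom per spike-in count and 4.37 on the relative scale, beside 7 residual degrees of freedom. All genes of a library share any error in its spike-in count, which the adjusted p of a single gene does not treat as shared. Both fits were tested on simulated data. Within-library ratios were compared by two-sided exact permutation tests over all assignments of the libraries to the groups. CPM per kb used the longest GENCODE M21 coding transcript of each gene, and promoter windows came from RefSeq (GRCm38.p6). Intervals cover counting error only. Alternatives used DESeq2 1.42.0, limma-voom 3.58.1, other filters and scalings, libraries left out and a replicate block; a shorter transcript length was added after seeing the data.

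The genes described and the lists set beside them (13 lists, 197 of 201 entries found) were chosen with earlier results of these data known. From each list up to 3 genes called higher and 3 called lower with the largest relative fold changes were eligible to be named, with the 3 nearest genes in pattern for each member, all with a mean of at least 1 CPM. Vgll1, Vgll2 and single markers were named after their values were seen.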

Additional observations from a re-analysis of the deposited data

Results flagged for a closer look

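Of 46 groups of 4 or 5 libraries checked for a single library far from the others, 2 stood out, where chance flags about 1 in 20 groups. Tead3 had 309 counts per 100000 spike-in counts in dKO replicate 4, against 184 to 195 in the other dKO libraries, a gap of 0.909 of the group's range. Tead3 had 12.7 CPM in WT replicate 3, against 13.9 to 14.1 CPM in the other WT libraries, a gap of 0.823 of the range. In both cases all dKO values of Tead3 stayed above all WT values.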

How the results depend on the processing

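The call that a gene was higher in dKO per spike-in count held for all 8 genes under each of 16 alternatives, and on the relative scale under each of 17 for Wwtr1, Tead1, Tead3 and Tead4; Yap1 lost its call in 5, Vgll3 in 1 and Vgll4 gained one in 1, as described above. Without WT replicates 2, 3 and 4 the relative log2 fold change of Tead2 rounded to 0, against 0.10 with them (edgeR adjusted p = 1). There, genes called higher on the relative scale fell to 432, against 2355, and genes called lower to 163, against 2067; per spike-in count 43 were lower, against 120. Gene counts per spike-in count differed by log2 0.45 (exact p = 0.0667, the smallest that 15 assignments allow), and the ratios by 0.53 for Tead1 to Tead2, 0.96 for Tead3 to Tead2, 1.59 for Tead4 to Tead2 (each p = 0.0667) and 2.89 for Vgll3 to Vgll4 (p = 0.133), with fewer libraries. Genes called lower per spike-in count numbered 79 with DESeq2 and 187 with no filter. Leaving out 1 library gave 67 (without WT replicate 3) to 203 (without WT replicate 1; 193 without dKO replicate 4), and 1369 (without WT replicate 4) to 2275 lower on the relative scale. It gave log2 ratios of 0.26 to 0.46 for Wwtr1 to Yap1, 0.31 to 0.50 for Tead1 to Tead2 and -0.21 to -0.12 for Vgll4 to Yap1. Without division by length the TEAD shares were 30.4% Tead1, 61% Tead2 and 7.3% Tead3 in dKO, and 26.1%, 69.1%, 4.4% and 0.442% Tead4 in WT. With the shortest RefSeq-linked transcript, chosen after seeing the data, they were 22.2%, 69.6% and 6.65% in dKO, and 18.6%, 77%, 3.9% and 0.503% in WT. Places in the order of levels moved too: without division by length Yap1, Tead1 and Vgll4 stood at 2, 3 and 5 in dKO, and Yap1, Tead1, Vgll4 and Wwtr1 at 2, 3, 4 and 5 in WT. With the shortest transcript Tead1, Yap1, Wwtr1, Tead4 and Vgll3 stood at 3, 4, 5, 7 and 8 in dKO, and Tead1 and Wwtr1 at 4 and 5 in WT. Beyond fewer libraries and other lengths, the cause of these shifts was not tested. A replicate block left 8 genes of the set called per spike-in count and 6 on the relative scale, with 10476 genes higher and 145 lower per spike-in count and 1864 higher and 1598 lower on the relative scale. Deviations of same-numbered libraries over 14904 genes correlated at -0.17, -0.14, -0.33 and 0.16, and 1 of 8 libraries correlated best with its own number, so the numbers were not taken as pairs. Low read counts in WT limit the precision for Vgll1, Vgll2, Vgll3 and Tead4.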
